A study of Homo sapiens and Mus musculus with 26 samples.

Results

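C1 (2102EP-C1) is an isogenic cisplatin-resistant derivative of EP (2102EP), a human embryonal carcinoma line that models a testicular germ cell tumor. C1 cells were exposed to 10 nM perfluorooctanesulfonic acid (PFOS) or to vehicle (DMSO) for 4 days, and polyadenylated RNA was sequenced from 4 libraries of each group. These were 8 of the 26 samples of the study, which also included the parental cells and mouse testes. Genes were members when at least 4 of the 8 libraries held 0.33 CPM (counts scaled to a common library depth of 1e6 reads) or more, which kept 17256 of 17335 listed genes. NDP and SLC16A8 lay just inside the limit with a fourth-highest value of 0.335 CPM, and INHBB lay just outside it at 0.326 CPM. C1 is 1 resistant clone, and the control cells carried the same resistance as the treated cells. The question was which transcripts differ after a low dose of PFOS in cells that already resist cisplatin.

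PFOS is a persistent fluorinated surfactant that accumulates in blood and tissue and can bind fatty acid carriers and nuclear receptors of the PPAR family. Embryonal carcinoma cells are the malignant counterpart of pluripotent stem cells, express POU5F1, NANOG and SOX2, and have much of their developmental program held silent by polycomb repressive complexes. Hypoxia-inducible factors (HIFs) are transcription factors that are degraded when oxygen is plentiful and that otherwise switch on genes for glucose uptake, glycolysis, collagen hydroxylation and angiogenesis.

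The libraries held 25.6 M to 32.8 M gene-assigned reads (M, 1e6 reads), a 1.28-fold range, and no 2 libraries agreed within sampling noise. All 14 markers of embryonal carcinoma were measured, with a summed level of 10406 to 10537 CPM in control and 10384 to 11583 CPM in PFOS libraries. AFP, TTR and GATA6, which define yolk sac or endoderm, and CGA and CGB3, which define trophoblast, were not listed in the table. Of the yolk sac or endoderm markers 4 of 11 were measured, GPC3 the highest, with a summed level of 77.8 to 79.7 CPM in control and 77.2 to 85.1 CPM in PFOS libraries. Of the trophoblast markers 4 of 10 were measured, at 18.3 to 21.4 CPM in both groups. DCN and LUM, which define fibroblasts, were not listed either, and 6 of 8 fibroblast markers were measured. The summed fibroblast markers lay at 257 to 274 CPM in control and 252 to 264 CPM in PFOS libraries. Neural markers, 5 of 8 measured and NES (nestin) the highest, lay at 381 to 423 CPM in control and 346 to 384 CPM in PFOS libraries, the largest sum of the other cell types. The markers of the labelled cell type were present in every library.

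One treated library stood apart from the rest. On the first principal component, which held 39.5% of the variance, PFOS replicate 1 scored 43.4 and PFOS replicate 3 scored 8.41, while the other 6 libraries lay between -13.02 and -1.79. PFOS replicate 1 was the highest or the lowest of the 8 libraries for 59.3% of genes, against 15.7% to 24.7% for each other library. The displacement followed base composition. Among protein-coding genes with the lowest transcript GC content (30.7% to 40.8%), the median difference of PFOS replicate 1 from the control mean was 0.17 on the log2 scale, and among those with the highest (58.6% to 76.9%) it was -0.28. PFOS replicate 3 went from 0.07 to -0.13 between the same sets, PFOS replicate 4 from 0.04 to -0.05 and PFOS replicate 2 from 0.03 to -0.03. Control replicate 2 went from 0.03 to -0.05 and control replicate 4 from -0.02 to 0.05, so a gradient of that small size also occurred among the controls.

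**Figure D1:**
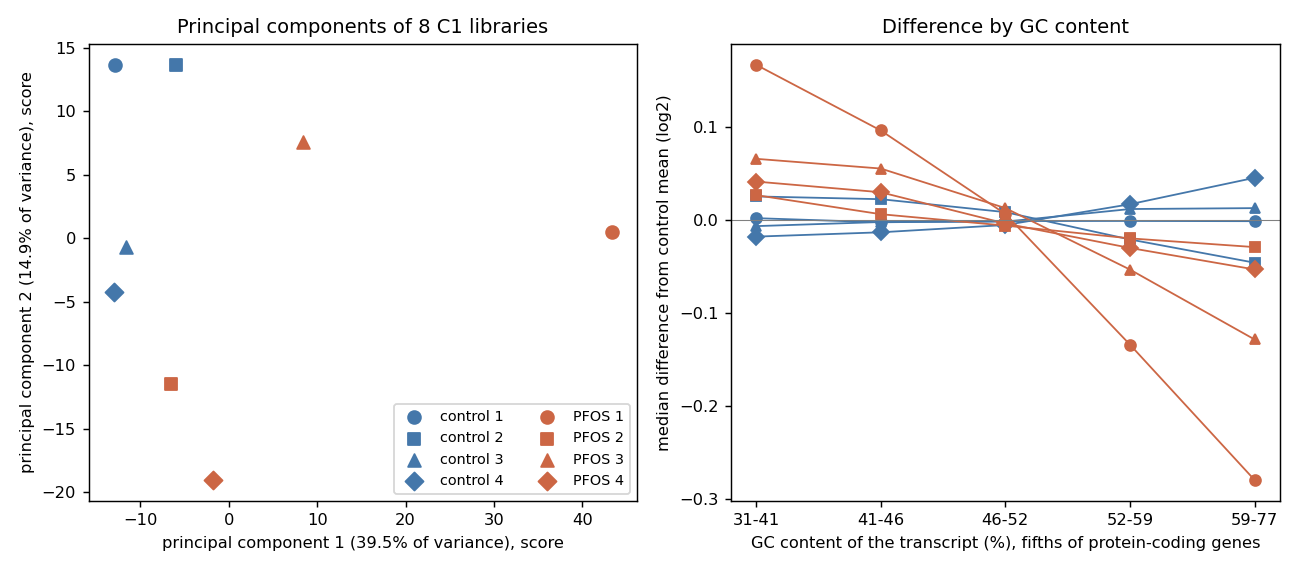
The left panel places the 8 C1 libraries by their scores on the first and second principal components of log2 CPM over 17256 genes, with control in blue and PFOS in orange and a marker shape for each replicate number. The right panel gives, for each library, the median log2 difference from the control mean (vertical axis) in 5 equal sets of protein-coding genes ordered by transcript GC content in percent (horizontal axis). PFOS replicate 1 lies at 43.4 on the first component and falls from 0.17 to -0.28 across the sets, the steepest line of the 8.

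Transcripts outside the usual messenger RNAs moved with the same library. Mitochondrial transfer RNA took 0.0272% of reads in PFOS replicate 1 and 0.0131% in PFOS replicate 3, against 0.00778% to 0.00888% in controls and 0.00901% and 0.00851% in PFOS replicates 2 and 4. Mitochondrial ribosomal RNA took 2.72% in PFOS replicate 1, 1.84% in PFOS replicate 3 and 1.43% to 1.56% in controls. Long non-coding RNA took 1.48% in PFOS replicate 1, 1.24% to 1.28% in the other treated libraries and 1.18% to 1.21% in controls, so the groups did not overlap. Of 10 such shares and totals, lncRNA, pseudogenes and protein-coding genes reached the smallest value the exact two-sided permutation test allows (p = 0.0286), and none passed after adjustment over the 10 (adjusted p = 0.0952, exact permutation).

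Single genes show how far PFOS replicate 1 lay from the other treated libraries. TRNH, the mitochondrial transfer RNA for histidine, had 2114 reads in PFOS replicate 1, 666 in PFOS replicate 3 and 315 to 417 in the other 6 libraries. TRNG, the transfer RNA for glycine, had 2285, 824 and 358 to 445 reads in the same order. FABP5P7, RPL36AP37, RPS28P4 and RPL7AP50, all pseudogenes, were 4.46 to 5.21 times as high in PFOS replicate 1 as in the mean of the other treated libraries. Their reads may be shared with the parent genes, so their assignment is uncertain. HNRNPA1P38, FBXL6, SNORA104, GHDC, RASSF7 and FAM239C were 2.20 to 3.52 times lower in PFOS replicate 1. FBXL6 had 36 reads there, 112 in PFOS replicate 3 and 121 to 211 in the other libraries. These 12 genes were picked for this distance, so their values are a description of 1 library and not of PFOS.

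With all 8 libraries, no gene passed an adjusted p of 0.05 (limma with Benjamini-Hochberg adjustment, called in 0% of 17256 genes), and the smallest adjusted p was 0.273. At an unadjusted p under 0.05 there were 2768 genes, 16% of those tested, of which 1400 (8.11%) were higher and 1368 (7.93%) were lower at 10 nM. Every treated library was above every control library for 888 genes (5.15%) and below every control library for 794 genes (4.6%). The median log2 fold change over all genes was 0.00, and 51% of genes were above 0. Differences were small, with 273 genes at 1.5-fold or more, 193 of them higher and 80 lower, and 18 genes at 2-fold or more. A fold change here is on the log2 scale of the deposited values, which include a small added count, and so understates the change of low genes.

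The 12 genes with the smallest p among those higher at 10 nM and not overlapping between groups were S100A10, EPHA3, ZNF600, UGP2, OLIG3, FABP7, LINC01559, LINC01844, PIWIL1, LINC00678, CTCFL and JAKMIP2-AS1. None of them was called (limma adjusted p = 0.273 for each). S100A10, an S100 family protein that partners annexin A2 at the plasma membrane (chromosome 1, 151982915 to 151993859, GRCh38.p14), lay at 6.81, 6.90, 6.94 and 6.90 log2 CPM in controls and 7.24, 7.17, 7.12 and 7.20 in PFOS libraries. All 4 treated libraries were above all controls, by a mean of 0.30 ± 0.05 (SE, n = 4 and 4), and PFOS replicate 1 lay close to the other treated libraries. EPHA3, an ephrin receptor tyrosine kinase (chromosome 3, 89107621 to 89482134), lay at 3.96, 3.94, 4.00 and 4.20 in controls and 4.98, 4.78, 4.35 and 4.68 in PFOS libraries, a difference of 0.67 ± 0.12. UGP2, which makes UDP-glucose for glycogen, was higher by 0.28 ± 0.05.

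OLIG3, a neural basic helix-loop-helix factor, lay at 1.25, 1.52, 2.00 and 2.36 log2 CPM in controls and 3.37, 2.92, 2.56 and 2.87 in PFOS libraries. The controls were themselves widely spread, at 63 to 159 reads against 185 to 275 in PFOS libraries, and the difference was 1.15 ± 0.23. FABP7, a brain-type fatty acid-binding protein, lay at 3.09 to 3.16 in controls and 3.81, 3.43, 3.53 and 3.52 in PFOS libraries. CTCFL, the testis paralog of the insulator protein CTCF, lay at 2.35 to 2.82 in controls and 3.56, 3.01, 3.07 and 3.43 in PFOS libraries. Neither FABP7 (0.45 ± 0.09) nor CTCFL (0.66 ± 0.14) overlapped between groups.

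The 12 corresponding genes lower at 10 nM included PLEKHG3, JRK, AMOTL2, TLN1, CAD, PLXND1, FLNA, FASN, WNT9A, ITGA3 and AHDC1, and none of the 12 was called (limma adjusted p = 0.273 for each). TLN1 (talin), FLNA (filamin A) and ITGA3 (an integrin subunit) link membrane receptors to the cytoskeleton. FLNA lay at 9.96, 9.89, 9.79 and 9.80 log2 CPM in controls and 9.24, 9.62, 9.59 and 9.51 in PFOS libraries, lower by a mean log2 difference of -0.37 ± 0.08. PFOS replicate 1 was the lowest library for FLNA, and the other 3 were still below all controls. FASN, the fatty acid synthase (chromosome 17, 82078338 to 82098236), lay at 8.27, 8.10, 8.04 and 8.09 in controls and 7.25, 7.83, 7.80 and 7.61 in PFOS libraries, a difference of -0.50 ± 0.11. CAD, which carries the opening steps of pyrimidine synthesis (chromosome 2, 27217369 to 27243943), lay at 7.96, 7.88, 7.73 and 7.80 in controls and 7.06, 7.56, 7.52 and 7.38 in PFOS libraries, a difference of -0.46 ± 0.10. AMOTL2, an angiomotin family member and known target of YAP, differed by -0.44 ± 0.09.

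Base composition moved with direction in these 24 genes. The median transcript GC content was 43.2% in the 12 higher genes and 59.3% in the 12 lower genes, against 48.5% over all genes tested. All 24 retained their direction after a smooth trend on GC content was removed from each library, with FLNA at -0.26, FASN at -0.37, CAD at -0.40 and S100A10 at 0.27. AHDC1 went from -0.29 to -0.17 and PLXND1 from -0.30 to -0.19, while OLIG3 went from 1.15 to 1.18. The 24 were picked by p in the same values, so a kept direction carries little weight. No gene was called in that fit either (smallest limma adjusted p = 0.303 over 16035 genes). How much of each difference belongs to base composition was not tested. Among 126 of the genes selected by p or as regulators, leaving out PFOS replicate 1 made the log2 fold change over 1.5 times smaller for 38 and over 1.5 times larger for 3, and turned the sign of 1, NANOG.

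Without PFOS replicate 1, 7 genes (0.0406% of those tested) passed, and 12.7% were at an unadjusted p under 0.05. S100A10, LINC00836, LINC00678 and EPHA3 were higher (0.0232% of genes tested) and CAD, FGFR3 and FASN were lower (0.0174%), at limma adjusted p of 0.0407 to 0.0492. For all 7 the treated and control libraries also did not overlap with all 8 libraries included. LINC00836 lay at 6.21, 6.38, 6.28 and 6.25 log2 CPM in controls and at 7.38, 6.58, 6.57 and 6.71 in PFOS libraries, so its largest displacement was in the library left out. LINC00678 lay at 5.97 to 6.06 in controls and 6.67, 6.28, 6.29 and 6.33 in PFOS libraries. FGFR3, a fibroblast growth factor receptor (chromosome 4, 1793293 to 1808867), lay at 7.20, 7.17, 7.11 and 7.10 in controls and 6.25, 6.89, 6.78 and 6.87 in PFOS libraries. With that library left out, the log2 fold changes were 0.28 ± 0.04 for S100A10, 0.34 ± 0.05 for LINC00836, 0.29 ± 0.04 for LINC00678, 0.58 ± 0.09 for EPHA3, -0.36 ± 0.06 for CAD, -0.29 ± 0.04 for FGFR3 and -0.38 ± 0.06 for FASN. These calls rest on the choice of libraries and of values: with the GC trend also removed, none of the 7 passed (smallest limma adjusted p = 0.168). Among protein-coding genes alone, none passed without PFOS replicate 1 either by limma, with 1946 genes at an unadjusted p under 0.05.

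**Figure D2:**
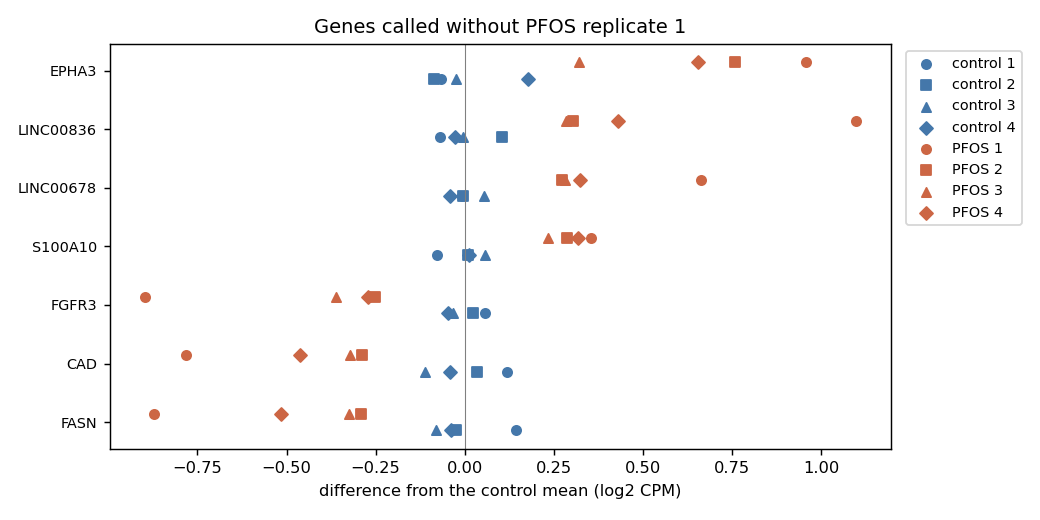
Each row is one of the 7 genes called without PFOS replicate 1, and each point is 1 of the 8 C1 libraries, placed by its difference from the control mean in log2 CPM (horizontal axis), with control in blue and PFOS in orange. PFOS points lie right of all control points for EPHA3, LINC00836, LINC00678 and S100A10 and left of them for FGFR3, CAD and FASN, and PFOS replicate 1 (orange circle) is farthest from 0 in every row.

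Leaving out PFOS replicate 3 as well, which leaves 2 treated libraries, gave 29 called genes (0.168% of those tested), 19 higher (0.11%) and 10 lower (0.058%), and included all 7 named above. Among those added were TXNIP and ARRDC4, arrestin-family genes that respond to cellular glucose, at log2 fold changes of 0.85 ± 0.11 and 0.65 ± 0.11. PLOD2, a collagen lysyl hydroxylase, was higher by 0.57 ± 0.11, while AMOTL2 and CCN1, both known targets of YAP, differed by -0.54 ± 0.07 and -0.42 ± 0.07. CCN1 lay at 4.29, 4.43, 4.43 and 4.42 log2 CPM in controls and 4.49, 4.06, 4.28 and 3.89 in PFOS libraries, so PFOS replicate 1 was above every control, and with all 8 libraries its difference was -0.21 (limma adjusted p = 0.353). ARRDC4, PLOD2 and CCN1 were picked here after their values were seen. TXNIP lay at 5.46, 5.47, 5.93 and 5.87 log2 CPM in controls and at 6.63, 6.50, 5.81 and 6.55 in PFOS libraries, so PFOS replicate 3 lay within the control range.

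Of the pathway lists, genes induced by hypoxia had the largest share of members on one side. Of 47 measured members of a 50-gene hypoxia list, 44 had a log2 fold change above 0 (51% over all genes) and the median was 0.21. At an unadjusted p under 0.05, 21 of 47 were higher (44.7%, against 8.11% of all genes) and 1 was lower. None was called. Leaving out PFOS replicate 1 gave 22 higher and 0 lower (6.44% and 6.24% of all genes) with a median of 0.19. With the GC trend removed they were 20 higher and 1 lower (5.89% and 7.66% of all genes) with a median of 0.20. When PFOS replicates 1 and 3 were both left out they were 29 higher and 1 lower (6.68% and 6.83% of all genes) with a median of 0.26.

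The 3 hypoxia genes with the smallest p were P4HA1, FAM162A and PPP1R3C. P4HA1, a collagen prolyl hydroxylase subunit, lay at 6.49, 6.37, 6.92 and 7.31 log2 CPM in controls and 7.90, 7.61, 7.13 and 7.59 in PFOS libraries, a difference of 0.79 ± 0.19. FAM162A, a mitochondrial protein induced by hypoxia, lay at 5.02, 5.03, 5.38 and 5.87 in controls and 6.04, 6.10, 5.73 and 5.97 in PFOS libraries, a difference of 0.63 ± 0.16. PPP1R3C, a glycogen-targeting subunit of protein phosphatase 1, lay at 0.15, 0.29, 0.48 and 0.35 in controls and 1.20, 1.23, 0.63 and 0.79 in PFOS libraries, at 28 to 38 and 42 to 73 reads. PPP1R3C did not overlap between groups, whereas in P4HA1 and FAM162A control replicate 4 lay above PFOS replicate 3.

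That overlap was shared by the list. The median difference of the 47 genes from the control mean was -0.13, -0.17, 0.02 and 0.32 in control replicates 1 to 4 and 0.31, 0.30, 0.08 and 0.27 in PFOS replicates 1 to 4. Control replicate 4 was thus above every treated library, and PFOS replicate 3 was the farthest below it. Only 4 of the 47 were higher in every treated than in every control library (5.15% of all genes). Leaving out 1 library at a time gave medians of 0.17 (without control replicate 1) to 0.30 (without control replicate 4).

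**Figure D3:**
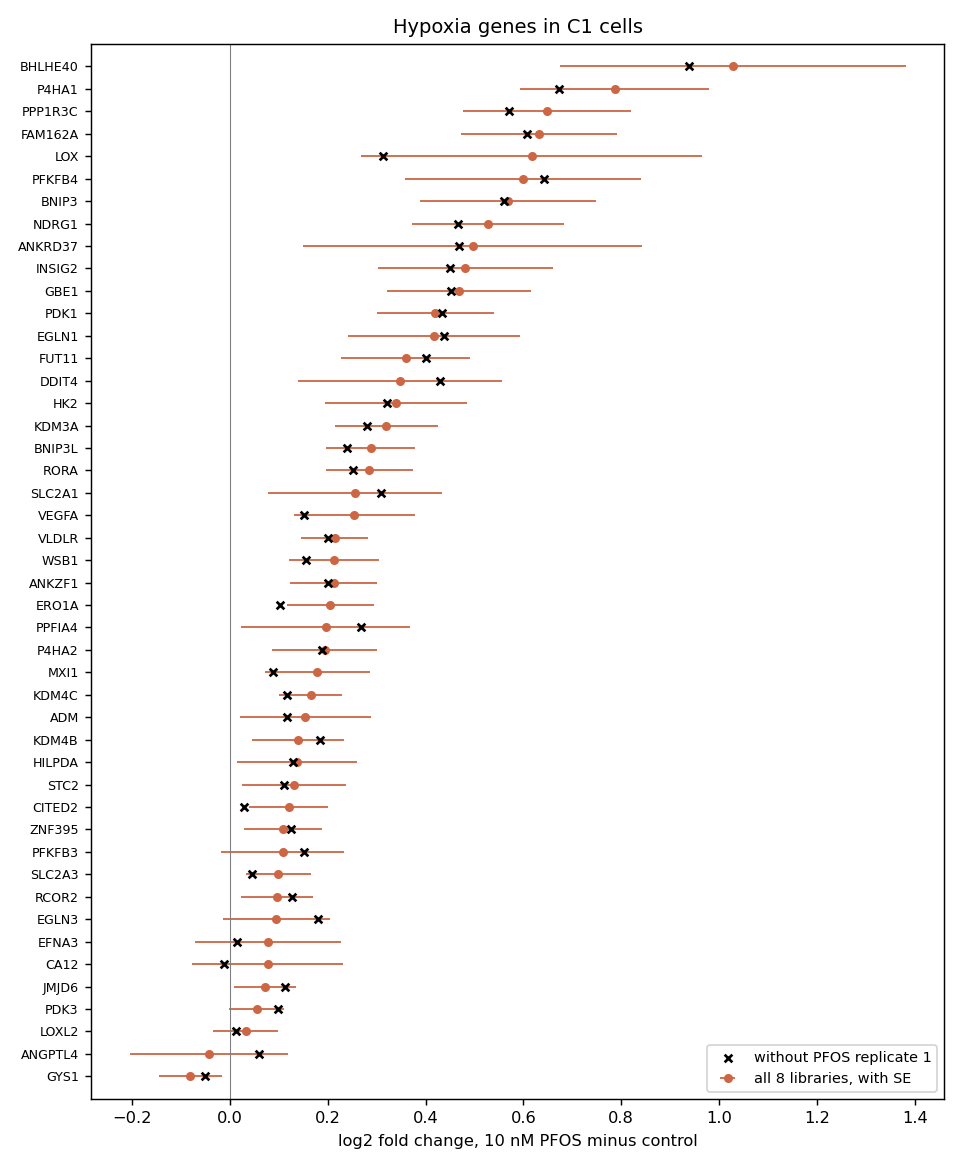
Each row is one of 46 of the 47 measured hypoxia genes, with its log2 fold change of 10 nM PFOS against control (horizontal axis) and its standard error from all 8 C1 libraries in orange, and the same value without PFOS replicate 1 as a black cross. Of the orange points, 44 lie above 0, around a median of 0.21.

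The HIF binding core is ACGTG or GCGTG, and the stretch of 250 bases upstream of the start was read for the 3 genes above to show where such letters lie. The sequences are from RefSeq (GRCh38.p14), are written from 5′ to 3′ on the strand of the gene, and have each match to either core on either strand in capitals.
P4HA1, chr10:73096867-73097116, minus strand: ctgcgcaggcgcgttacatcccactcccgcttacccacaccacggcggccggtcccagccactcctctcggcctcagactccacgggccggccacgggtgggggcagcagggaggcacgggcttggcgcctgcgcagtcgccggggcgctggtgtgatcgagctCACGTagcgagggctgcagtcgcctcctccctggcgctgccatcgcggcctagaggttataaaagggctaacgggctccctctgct
FAM162A, chr3:122383932-122384181, plus strand: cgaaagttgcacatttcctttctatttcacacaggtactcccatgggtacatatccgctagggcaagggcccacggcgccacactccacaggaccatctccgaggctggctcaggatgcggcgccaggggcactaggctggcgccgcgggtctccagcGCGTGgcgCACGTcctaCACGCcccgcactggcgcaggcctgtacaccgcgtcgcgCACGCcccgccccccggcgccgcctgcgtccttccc
PPP1R3C, chr10:91633072-91633321, minus strand: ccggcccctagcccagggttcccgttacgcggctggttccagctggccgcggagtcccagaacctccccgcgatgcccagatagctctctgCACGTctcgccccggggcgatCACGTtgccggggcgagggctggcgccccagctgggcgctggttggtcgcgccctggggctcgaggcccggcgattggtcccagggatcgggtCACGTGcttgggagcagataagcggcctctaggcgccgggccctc
The P4HA1 window held the letters at 1 place, 86 bases upstream of the start. The FAM162A window held them at 4 places, 92, 84, 75 and 36 bases upstream, and the PPP1R3C window at 3 places, 159, 138 and 45 bases upstream. The motif was found in 29 of the 35 hypoxia genes with a window and in 55.1% of windows of all 12544 genes tested that had one. No window was available for 12 of the 47 hypoxia genes and for 4712 of all 17256 genes tested, so each share covers part of its set. The shares were not tested against each other, and a match is a string of letters and not a measured binding site.

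The sensors and factors of the pathway were close to their control levels. HIF1A, the oxygen-regulated subunit, lay at 8.47, 8.51, 8.42 and 8.41 log2 CPM in controls and 8.85, 8.39, 8.60 and 8.44 in PFOS libraries, with the treated libraries on both sides of the controls. Its difference was 0.11 ± 0.09, and 0.02 without PFOS replicate 1. EPAS1, which encodes HIF-2α, differed by 0.05 ± 0.06 and overlapped between groups. VEGFA, the angiogenic HIF target, lay at 4.16, 4.22, 4.18 and 4.63 in controls and 4.85, 4.57, 4.35 and 4.43 in PFOS libraries, higher by 0.25 ± 0.12 (limma adjusted p = 0.331). Of 15 measured genes for hypoxia sensing, 8 were above 0, none was higher and 1 was lower at an unadjusted p under 0.05. That gene was ELOB, an elongin subunit of the VHL ligase, at -0.24 ± 0.10. ELOC, its partner, was higher by 0.09 ± 0.04, and HIF1AN, the HIF asparagine hydroxylase, differed by -0.08 ± 0.05.

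Glycolysis genes leaned to the same side, and several of them, PDK1 included, were also on the hypoxia list. Of 28 measured, 21 were above 0 with a median of 0.11, and 8 were higher (28.6%, against 8.11% of all genes) and 0 lower at an unadjusted p under 0.05. LDHA, which reduces pyruvate to lactate, lay at 10.18, 9.96, 10.55 and 10.85 log2 CPM in controls and 11.02, 10.90, 10.79 and 10.99 in PFOS libraries, higher by 0.54 ± 0.15. PDK1, the kinase that holds back pyruvate entry into mitochondria and also a member of the hypoxia list, was higher by 0.42 ± 0.12. ALDOA, an aldolase, was higher by 0.74 ± 0.21, and by 0.54 without PFOS replicate 1. ALDOA had only 193 to 321 reads in controls and 292 to 567 in PFOS libraries, against 32027 to 62168 for LDHA. How completely its reads were counted was not tested. Control replicate 4 again lay above at least 1 treated library for LDHA and PDK1, and no member was higher in every treated library than in every control. The 1 member that did not overlap was lower, SLC16A1, a lactate transporter, at -0.09 ± 0.04, named here after its value was seen. Over the list, the median difference from the control mean was -0.09, -0.18, 0.05 and 0.201 in control replicates 1 to 4. In PFOS replicates 1 to 4 it was 0.08, 0.198, 0.04 and 0.18, so control replicate 4 was above every treated library. The list's median was 0.08 without control replicate 1 or 2 and 0.17 without control replicate 4. Respiratory chain genes lay slightly lower, with 12 of 48 above 0 and a median of -0.08. That median was -0.02 when PFOS replicate 1 was left out, with 22 above 0. UQCRB, a complex III subunit, differed by 0.25 ± 0.09, and NDUFS7 and COX8A, subunits of complexes I and IV, by -0.32 ± 0.12 and -0.40 ± 0.16. Without PFOS replicate 1 these were 0.15, -0.17 and -0.23.

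**Figure D4:**
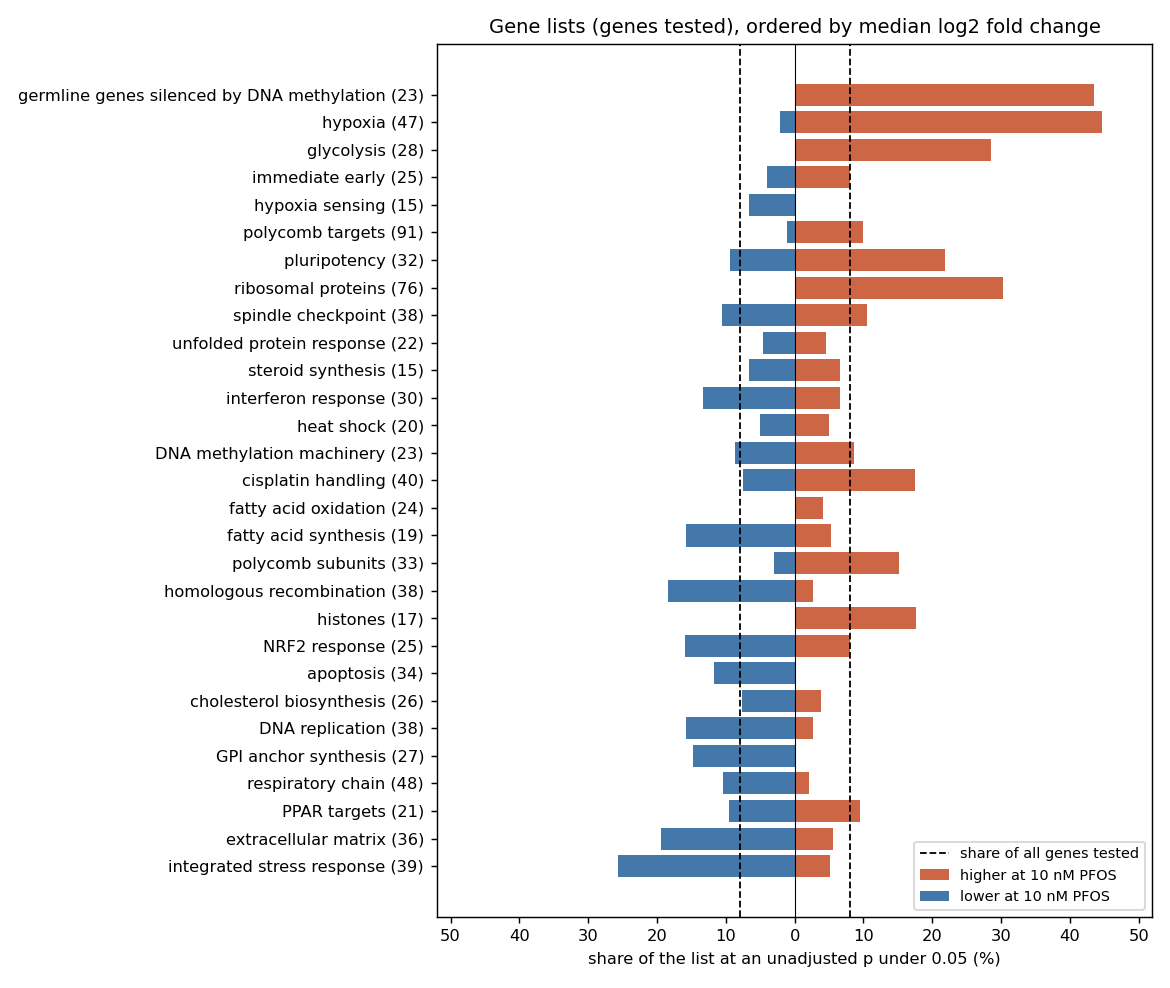
Each row is a gene list with the number of genes tested, and bars give the share of the list in percent (horizontal axis) at an unadjusted p under 0.05, higher at 10 nM PFOS in orange to the right and lower in blue to the left. Dashed lines mark the shares over all genes tested, 8.11% higher and 7.93% lower. Hypoxia (44.7%) and germline genes (43.5%) extend farthest to the right and the integrated stress response (25.6%) farthest to the left, and no gene of any list was called.

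Germline genes that somatic cells keep silent by promoter DNA methylation also lay mostly above 0. Of 37 listed, 23 were measured, 20 of them above 0 with a median of 0.23. At an unadjusted p under 0.05, 10 were higher (43.5%, against 8.11% of all genes) and 0 lower, and 7 were higher without overlap between groups (5.15% of all genes). Without PFOS replicate 1 the median was 0.23 with 11 higher and 0 lower, and without PFOS replicate 3 it was 0.33. With the GC trend removed it was 0.22 with 8 higher and 0 lower. The list's median difference from the control mean was -0.03, -0.08, 0.04 and 0.04 in control replicates 1 to 4 and 0.40, 0.34, 0.08 and 0.37 in PFOS replicates 1 to 4, so all treated libraries were above all controls, PFOS replicate 3 the least.

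Members of this list act in meiosis and in silencing of transposons. PIWIL1, an Argonaute protein that binds piRNAs (chromosome 12, 130337887 to 130426260), lay at 1.44, 1.39, 1.30 and 1.51 log2 CPM in controls and 2.17, 1.98, 1.86 and 1.86 in PFOS libraries, higher by 0.56 ± 0.12. SYCP3, a structural protein of the synaptonemal complex, lay at 1.73, 1.54, 1.78 and 1.92 in controls and 2.36, 2.16, 2.33 and 2.19 in PFOS libraries, higher by 0.52 ± 0.11. MAEL, which acts in the piRNA pathway, lay at 2.36, 2.61, 2.62 and 2.16 in controls and 3.01, 2.92, 2.79 and 3.01 in PFOS libraries, higher by 0.49 ± 0.12. The depth behind these values was small, with 69 to 87 PIWIL1 reads in controls and 91 to 125 in PFOS libraries, 89 to 116 and 115 to 159 for SYCP3, and 138 to 193 and 204 to 243 for MAEL.

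**Figure D5:**
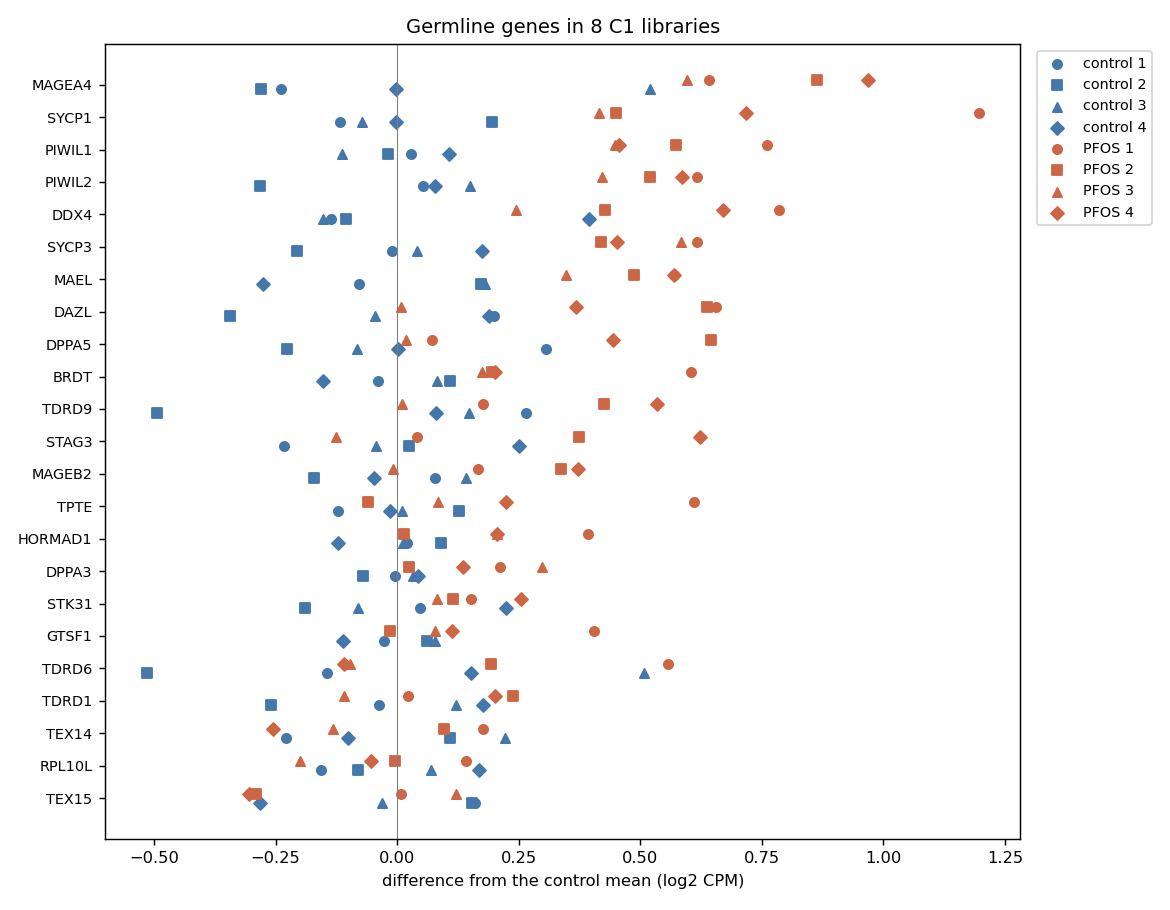
Each row is one of the 23 measured germline genes and each point is 1 of the 8 C1 libraries, placed by its difference from the control mean in log2 CPM (horizontal axis), with control in blue and PFOS in orange. For 20 of the 23 genes the PFOS mean is above the control mean, and for 7 every PFOS point lies above every control point.

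The enzymes that write and remove DNA methylation were near 0 as a group, with 10 of 23 above 0 and a median of -0.01. At an unadjusted p under 0.05, 2 were higher (8.70%, against 8.11% of all genes) and 2 lower (8.70%, against 7.93%). DNMT1, the maintenance methyltransferase, differed by -0.05 ± 0.06, DNMT3A by 0.10 ± 0.06 and DNMT3B by -0.08 ± 0.05, and the groups overlapped for each. DNMT3L, the catalytically inactive cofactor of the de novo enzymes, lay at 5.36, 5.36, 5.30 and 5.33 log2 CPM in controls and 4.69, 5.24, 5.19 and 5.29 in PFOS libraries, a difference of -0.24 ± 0.11. It was -0.10 when PFOS replicate 1 was left out. TET1, which oxidizes methylcytosine, differed by 0.09 ± 0.08 and DPPA3, an inhibitor of maintenance methylation, by 0.17 ± 0.06. TDG, a thymine DNA glycosylase, differed by 0.15 ± 0.06 and TRIM28, a corepressor of transposons, by -0.30 ± 0.12. Without PFOS replicate 1, TET1 was at 0.04, DPPA3 at 0.15, TDG at 0.10 and TRIM28 at -0.15.

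Polycomb repressive complex 2 trimethylates histone H3 at lysine 27. Its catalytic subunit EZH2 lay at 5.97 to 6.03 log2 CPM in controls and 6.24, 6.02, 6.22 and 6.08 in PFOS libraries, with 1 treated library within the control range and a difference of 0.13 ± 0.06. SUZ12, a core subunit, differed by 0.09 ± 0.06, and by 0.04 without PFOS replicate 1. EED, the subunit that reads the mark, lay at 5.56, 5.58, 5.50 and 5.55 in controls and 5.17, 5.49, 5.49 and 5.50 in PFOS libraries, so the groups did not overlap but 3 treated libraries lay at the lower edge of the controls. The difference was -0.14 ± 0.08, and -0.06 without PFOS replicate 1. KDM6B, which removes the mark, lay at 5.66, 5.52, 5.59 and 5.64 in controls and 6.36, 5.77, 5.72 and 5.81 in PFOS libraries, higher by 0.31 ± 0.12, and by 0.16 without PFOS replicate 1. A list of 33 measured genes held polycomb subunits and also enzymes that remove the mark, KDM6B among them. Of these, 15 were above 0 with a median of -0.01. At an unadjusted p under 0.05, 5 were higher (15.2%, against 8.11% of all genes) and 1 lower (3.03%, against 7.93%). KDM6B, which is not a subunit, was 1 of the 5. Without PFOS replicate 1, 3 were higher and 1 lower, and with the GC trend removed 1 was higher and 2 lower. CBX6, a chromodomain subunit, differed by -0.30 ± 0.09 and AEBP2, an accessory subunit, by 0.19 ± 0.08. With the GC trend removed CBX6 was at -0.22, AEBP2 at 0.11 and KDM6B at 0.42.

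Of 152 developmental genes that polycomb holds silent in pluripotent cells, 91 were measured, 55 of them above 0 with a median of 0.04. At an unadjusted p under 0.05, 9 were higher (9.89%, against 8.11% of all genes) and 1 was lower (1.10%, against 7.93%). That lower gene was GDF7, named here after its value was seen. Besides OLIG3 the smallest p were at HOXB1, a hindbrain homeobox factor, higher by 0.30 ± 0.08, and EN1, a midbrain homeobox factor, higher by 0.63 ± 0.20. EN1 lay at 0.82 to 1.25 log2 CPM in controls and 2.24, 1.31, 1.46 and 1.54 in PFOS libraries, and without PFOS replicate 1 the difference was 0.42. With the GC trend removed, 67 of the 91 were above 0 with a median of 0.08. Without PFOS replicate 1, 52 were above 0 with a median of 0.03, with 6 higher and 1 lower at that p. Without PFOS replicates 1 and 3, 49 were above 0 with a median of 0.01, with 8 higher and 2 lower.

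The core pluripotency factors stayed near their control levels, apart from SOX2. POU5F1 lay at 9.62 to 9.72 log2 CPM in controls and 9.67 to 9.71 in PFOS libraries (0.02 ± 0.05), and LIN28A, an RNA-binding protein of stem cells, differed by 0.01 ± 0.05. NANOG differed by -0.05 ± 0.06 and SOX2 by 0.24 ± 0.10, with SOX2 at 8.54, 8.68, 8.57 and 8.53 in controls and 9.13, 8.57, 8.83 and 8.76 in PFOS libraries. Of 32 pluripotency genes, 20 were above 0 with a median of 0.03. At an unadjusted p under 0.05, 7 were higher (21.9%, against 8.11% of all genes) and 3 lower (9.4%, against 7.93%). TNFRSF8, which encodes the embryonal carcinoma antigen CD30, lay at 3.93, 4.00, 3.93 and 3.82 in controls and 3.34, 3.74, 3.61 and 3.42 in PFOS libraries, a difference of -0.40 ± 0.09. FGF4, a growth factor of the epiblast, was higher by 0.18 ± 0.05, and PODXL, a sialomucin that carries stem cell antigens, differed by -0.21 ± 0.07.

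Of the pathway lists described here, those with the lowest medians were the integrated stress response and the extracellular matrix. In the integrated stress response, which ATF4 drives when amino acids are short, 12 of 39 genes were above 0 with a median of -0.10, and 10 were lower (25.6%, against 7.93% of all genes) and 2 higher at an unadjusted p under 0.05. The 3 genes with the smallest p were amino acid transporters. SLC7A1, for cationic amino acids, lay at 6.11, 6.11, 6.01 and 6.01 log2 CPM in controls and 5.69, 5.85, 5.92 and 5.65 in PFOS libraries (-0.28 ± 0.07). SLC7A5, for large neutral amino acids, differed by -0.26 ± 0.07, and SLC1A5, for glutamine, by -0.28 ± 0.08, both without overlap. The list's median was -0.07 without PFOS replicate 1 and -0.04 without PFOS replicates 1 and 3. The 2 treated libraries farthest along the first component were also the lowest for this list, with medians of -0.25 and -0.09 against -0.03 and -0.06 for the other 2.

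In the extracellular matrix list, 9 of 36 genes were above 0 with a median of -0.09, and 7 were lower (19.4%, against 7.93% of all genes) and 2 higher (5.56%, against 8.11%) at an unadjusted p under 0.05. COL5A1 and COL4A2, collagen chains, differed by -0.31 ± 0.08 and -0.24 ± 0.07 without overlap. THBS2, a matricellular thrombospondin at -0.88 to -0.27 log2 CPM in controls and -0.01 to 0.41 in PFOS libraries, was higher by 0.75 ± 0.20. Here PFOS replicate 1 was not the lowest library. The median difference from the control mean was 0.02 in PFOS replicate 1 and -0.10, -0.06 and -0.20 in PFOS replicates 2 to 4, and the list's median without PFOS replicate 1 was -0.14 with 10 lower and 2 higher. Fibroblast markers, which include collagen genes of the same list, had 1 of 6 above 0 and a median of -0.11, with 2 lower at an unadjusted p under 0.05, and a median of -0.16 without PFOS replicate 1. Their part in the difference was not tested.

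Ribosomal protein genes split. Of 76, 23 were higher (30.3%, against 8.11% of all genes) and 0 lower at an unadjusted p under 0.05, and 17 were higher without overlap (5.15% of all genes), yet only 42 were above 0 and the median was 0.02. RPS24 lay at 9.59, 9.73, 9.72 and 9.59 log2 CPM in controls and 10.23, 9.76, 10.07 and 9.87 in PFOS libraries (0.33 ± 0.09), and RPS27 and RPS23 were higher by 0.18 ± 0.06 and 0.17 ± 0.06. With the GC trend removed, 12 were higher and 1 lower, and without PFOS replicate 1 again 23 higher and 0 lower. Many ribosomal protein genes have near-identical pseudogenes, so their counts are uncertain. Of 17 measured histone genes, 3 were higher (17.6%, against 8.11% of all genes) and 0 lower at an unadjusted p under 0.05. Among them were H2BC5 (0.30 ± 0.12) and H2BC12 (0.26 ± 0.11), core histones of a near-identical family. Their counts are uncertain and their groups overlapped.

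For lipid metabolism, the PPARs and their targets, no list had more than 3 genes on either side at an unadjusted p under 0.05. Over all genes 8.11% were higher and 7.93% lower. PPARA, PPARD and PPARG, nuclear receptors for fatty acids, differed by -0.12 ± 0.12, -0.07 ± 0.07 and -0.03 ± 0.14, and the groups overlapped for each. The list of 21 PPAR targets also held these 3 receptors and RXRA, their partner. Of the 21, 5 were above 0 with a median of -0.09, with 2 higher and 2 lower. Without PFOS replicate 1, 8 were above 0 with a median of -0.04, and without PFOS replicates 1 and 3, 11 were above 0 with a median of 0.00. RXRA, 1 of the 2 lower, lay at 4.28, 4.32, 4.47 and 4.41 log2 CPM in controls and 3.79, 4.23, 4.07 and 4.11 in PFOS libraries (-0.32 ± 0.09). FABP3, a fatty acid carrier, was higher by 0.34 ± 0.13. Of 19 genes for fatty acid synthesis, 3 were lower (15.8%) and 1 higher (5.26%), and the 3 were the chain of enzymes from citrate to palmitate. ACLY, the ATP citrate lyase, lay at 9.04 to 9.09 in controls and 8.63, 8.95, 8.92 and 9.02 in PFOS libraries (-0.19 ± 0.07), and ACACA, the acetyl-CoA carboxylase, differed by -0.29 ± 0.08 beside FASN at -0.50 ± 0.11. In fatty acid oxidation, 1 of 24 was higher, DECR1 (0.21 ± 0.06), and 0 were lower, while ACADM and ECI1 differed by 0.18 ± 0.08 and -0.21 ± 0.10. In cholesterol biosynthesis, 1 of 26 was higher, SC5D (0.18 ± 0.06), and 2 were lower. In steroid synthesis, 1 of 15 was higher, STS (0.22 ± 0.08), and 1 lower, FDXR (-0.24 ± 0.10), with HSD17B4 at 0.12 ± 0.06.

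Cisplatin acts by crosslinking DNA, and resistance has been tied to uptake, efflux, detoxification and apoptosis. CDKN1A, a cell cycle inhibitor, differed by -0.21 ± 0.12 and MDM2, a ubiquitin ligase, by -0.002 ± 0.05, and the groups overlapped for each. CDKN1A was at -0.08 without PFOS replicate 1. In apoptosis, 0 of 34 were higher and 4 lower (11.8%, against 7.93% of all genes) at an unadjusted p under 0.05. There were 3 lower without PFOS replicate 1 and 0 without PFOS replicates 1 and 3. Among the 4 were the BH3-only genes BBC3 (-0.23 ± 0.08), BIK (-0.44 ± 0.18) and BMF (-0.19 ± 0.08). With the GC trend removed these were -0.06, -0.40 and -0.16. BBC3 and BIK overlapped between groups, and BIK had 23 to 50 reads. Of 40 genes for cisplatin uptake, efflux and detoxification, 7 were higher (17.5%, against 8.11% of all genes) and 3 lower (7.5%, against 7.93%), and 3 and 2 without PFOS replicate 1. Among the 7 were the metallothioneins MT1X, MT1E, MT1F and MT2A, small metal-binding proteins named here after their values were seen, at 0.39, 0.36, 0.27 and 0.26. Without PFOS replicate 1 these were 0.21, 0.26, 0.15 and 0.15, and as close paralogs they may share reads. ABCC5, an efflux pump, lay at 6.20 to 6.33 log2 CPM in controls and 6.01 to 6.12 in PFOS libraries (-0.19 ± 0.05), GSTA4, a glutathione transferase, was higher by 0.21 ± 0.06, and DDB1, a damage-recognition ligase subunit, differed by -0.18 ± 0.06.

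In DNA repair and replication more genes were lower than higher. Of 38 genes for homologous recombination, 1 was higher and 7 lower (18.4%, against 7.93% of all genes) at an unadjusted p under 0.05, and with the GC trend removed 1 and 10 (7.66% of all genes were lower in that fit). The list's median was -0.02, and -0.07 with the GC trend removed. MUS81, a structure-specific nuclease, differed by -0.26 ± 0.08, RAD54L, a recombination motor, by -0.26 ± 0.08 and FANCA, of the crosslink repair complex, by -0.34 ± 0.11. In DNA replication, 1 of 38 was higher and 6 lower (15.8%), and 4 lower without PFOS replicate 1, with MCM7, a helicase subunit, at -0.22 ± 0.07 and the polymerase subunits POLD1 and POLE at -0.38 ± 0.13 and -0.20 ± 0.08. In the spindle checkpoint, 4 of 38 were higher and 4 lower (10.5% each), with CENPC at 0.20 ± 0.06, NUF2 at 0.23 ± 0.08 and CDC20 at -0.25 ± 0.09.

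The remaining lists had at most 4 genes on either side at an unadjusted p under 0.05 (8.11% of all genes higher, 7.93% lower). In the unfolded protein response 1 of 22 was higher and 1 lower, with the chaperone cofactor SDF2L1 at -0.22 ± 0.09, MANF at 0.16 ± 0.07 and the sensor ATF6 at 0.13 ± 0.06. In heat shock 1 of 20 was higher and 1 lower, with FKBP4 at -0.17 ± 0.07, HSPA1A at 0.28 ± 0.11 and HSF1 at -0.16 ± 0.08. HSPA1A shares reads with a near-identical neighbour, so its value is uncertain. In the NRF2 response, which answers oxidants, 2 of 25 were higher and 4 lower (16%), and 1 and 2 without PFOS replicate 1, with SLC48A1 at -0.26 ± 0.09, FTH1 at 0.16 ± 0.06 and TKT at -0.15 ± 0.06. In immediate early genes 2 of 25 were higher and 1 lower, with KLF10 at 0.26 ± 0.09, NR4A1 at -0.40 ± 0.17 and EGR3 at 0.65 ± 0.28. In the interferon response 2 of 30 were higher and 4 lower (13.3%), with TAP1 at -0.34 ± 0.11, IFI27 at -0.79 ± 0.26 and MX1 at 0.24 ± 0.08. In GPI anchor synthesis 0 of 27 were higher and 4 lower (14.8%), and 2 lower without PFOS replicate 1, with PIGO at -0.24 ± 0.06, GPAA1 at -0.36 ± 0.15 and PGAP3 at -0.30 ± 0.13. Genes encoded by mitochondrial DNA that make protein were not analysed here.

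Parental EP cells received the same 10 nM dose for 4 days, with 2 libraries a group in a separately normalized table, so values stand side by side with no test. Hypoxia genes had a median difference of 0.10, with 29 of 46 above 0, beside 0.21 and 44 of 47 in C1 cells. P4HA1 lay at 5.77 and 5.75 log2 CPM in parental controls and 6.02 and 5.98 with PFOS, and LDHA at 10.13 and 10.12 and at 10.25 and 10.195. ALDOA, higher in C1 cells but with few reads there, lay at 6.56 and 6.52 in parental controls and 4.94 and 5.26 with PFOS. This was the opposite order and a larger difference (-1.44). Germline genes had a median of 0.18, with 11 of 17 above 0, while polycomb targets had a median of -0.15 with 23 of 81 above 0, beside 0.04 in C1 cells. OLIG3 lay at 2.63 and 2.29 in parental controls and 1.89 and 2.16 with PFOS, below rather than above the controls. CAD lay at 7.94 and 7.89 and at 8.08 and 8.17, the opposite order to C1 cells. With 2 libraries a group, 31.5% of genes were higher and 29.1% lower without overlap, so an order in the parental table carries little weight.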

How the data were processed

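C1 cells received 10 nM PFOS or vehicle for 4 days, in biological quadruplicate by the study's methods. The authors used Trimmomatic for trimming, STAR for alignment and featureCounts for gene counts. The submitters' notes give GRCh38.p14 and the study's methods an earlier patch of GRCh38, and tool versions are not given in the sources used here. The deposited values are log2 CPM with a small added count (mean 2.90 reads), from which whole reads were recovered for 100% of values (tolerance 0.05 reads).

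Groups followed the labels. Genes with at least 0.33 CPM in 4 or more of the 8 libraries were fitted on the deposited log2 values with limma 3.58.1 (R 4.3.3; lmFit and eBayes with a mean trend), with Benjamini-Hochberg adjustment over 17256 genes and a threshold of 0.05. Single shares were tested by exact two-sided permutation. The fit was tested on simulated data. The members and gene lists were chosen with earlier results of these data known. Named genes were the 12 higher and 12 lower with the smallest p among non-overlapping genes averaging at least 1 log2 CPM (since none was called), the 3 smallest p of each list, a set of 22 fixed regulators, and the 12 most displaced genes of PFOS replicate 1. Transcript GC content came from GENCODE canonical transcripts and was available for 92.9% of genes, and promoters came from RefSeq. The GC trend was a natural spline with 5 degrees of freedom per library. Alternatives changed the normalization, filter, pseudocount, libraries, weights and GC trend. The GC fits and the fits without PFOS replicates 1 and 3 or on protein-coding genes alone, and limma-voom without PFOS replicate 1, were chosen after seeing the data. Depth limits low genes, and the p-values measure the spread between these libraries. Some genes and 1 list that the rules would name are not reported here.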

Additional observations from a re-analysis of the deposited data

Results flagged for a closer look

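In 19 of 272 groups of 4 libraries, 1 library lay far from the other 3 by Dixon's criterion, where chance alone gives about 1 in 20. PFOS replicate 1 was that library for the share of reads on lncRNA (1.48%, others 1.24% to 1.28%) and, in log2 CPM, for ZNF600 (6.46), LINC00678 (6.67), KDM6B (6.36), KLF10 (6.94) and RPS23 (9.19), where it was high. It was low for PLXND1 (5.80), ABCC5 (6.01), CDC20 (7.01), EED (5.17) and DNMT3L (4.69). PFOS replicate 3 was low for TXNIP (5.81, others 6.50 to 6.63). Among controls, replicate 4 was high for VEGFA (4.63, others 4.16 to 4.22), and replicate 2 was high for SC5D (7.85) and low for TRIM28 (9.01), RAD54L (6.50), SLC1A5 (5.77), GPAA1 (4.63) and LIN28A (11.001).

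In 29 of 118 named genes, every treated library lay on one side of every control library in C1 cells and on the opposite side in parental cells, a difference that was not tested. With 2 libraries a group, 31.5% of all genes were higher and 29.1% lower in the parental table without overlap, so an opposite order carries little weight. The 118 include genes whose groups overlapped in C1 cells and so could not qualify. Other named genes lay on the same side in both, among them CTCFL, CENPC and NUF2 (higher) and ITGA3 and AHDC1 (lower). The share of opposite genes over all genes is not given here. Higher in C1 and lower in parental cells, with the C1 log2 difference and then the parental one, were UGP2 (0.28 and -0.14), OLIG3 (1.15 and -0.43), FABP7 (0.45 and -0.47), LINC00678 (0.38 and -0.56), JAKMIP2-AS1 (0.31 and -0.04), DECR1 (0.21 and -0.21), KDM6B (0.31 and -0.59), HOXB1 (0.30 and -0.40), EN1 (0.63 and -0.82), HSPA1A (0.28 and -0.36), KLF10 (0.26 and -0.19), THBS2 (0.75 and -0.42) and FGF4 (0.18 and -0.32). Lower in C1 and higher in parental cells were PLEKHG3 (-0.49 and 0.17), JRK (-0.47 and 0.28), AMOTL2 (-0.44 and 0.12), CAD (-0.46 and 0.21), PLXND1 (-0.30 and 0.09), FLNA (-0.37 and 0.07), WNT9A (-0.42 and 0.22), BMF (-0.19 and 0.07), ABCC5 (-0.19 and 0.08), SLC7A5 (-0.26 and 0.11), SLC1A5 (-0.28 and 0.11), TAP1 (-0.34 and 0.32), COL5A1 (-0.31 and 0.08), PIGO (-0.24 and 0.09), EED (-0.14 and 0.19) and DNMT3L (-0.24 and 0.19).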

How the results depend on the processing

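No gene was called with all 8 libraries under any normalization, filter, pseudocount, weighting, GC or replicate-block setting that was run (limma, with 2768 genes at an unadjusted p under 0.05). Without PFOS replicate 1, 7 were called (4 higher, 3 lower), and limma-voom on the same 7 libraries also called 7 (3 higher, 4 lower). Without PFOS replicates 1 and 3, 29 were called (19 higher, 10 lower). Leaving out 1 library at a time gave 0 to 7 called genes (0 to 4 higher, 0 to 3 lower) and 1600 (without control replicate 1) to 3937 (without PFOS replicate 2) at an unadjusted p under 0.05, with 819 to 1912 higher and 781 to 2025 lower. With the GC trend removed and PFOS replicate 1 left out, 1689 were at an unadjusted p under 0.05, 707 of them higher. With the replicate number as a block, 0 were called and 2372 were at an unadjusted p under 0.05. Deviations of same-numbered libraries correlated at -0.19 to 0.07, and those of libraries with unlike numbers at -0.12 to 0.18. These values showed no pairing by number, and a shared batch was not tested.

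Differences that changed sign were mostly small, but CDKN1A lay at -0.30 to -0.08 when 1 library at a time was left out. HIF1A was -0.041 without PFOS replicates 1 and 3 and -0.0268 with the GC trend removed and PFOS replicate 1 left out, where SUZ12 was -0.0115. PPARD was 0.0101 and LIN28A -0.0127 with the GC trend removed, and LIN28A was -0.13 after quantile normalization. PPARG was 0.0015 with library weights and 0.074 without PFOS replicates 1 and 3, where TET1 was -0.0325 and CDKN1A 0.0345. NANOG was 0.0029 without PFOS replicate 1 among protein-coding genes and 0.0023 by limma-voom. Leaving out 1 library at a time gave -0.15 to 0.0359 for PPARG, -0.0852 to 0.0029 for NANOG, -0.0101 to 0.0209 for LIN28A and -0.0239 to 0.0285 for MDM2. The cause was not tested. The planned count models were not run because the deposited unit is log2.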
